A study of Mus musculus with 9 samples.

Results

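The genes described here are 34 mouse genes that drive or restrain the cell cycle: cyclins, cyclin-dependent kinases (CDKs), CDK inhibitors, pocket proteins of the retinoblastoma family, E2F transcription factors, CDC25 phosphatases, the Wee1 kinase and B-MYB. They were taken as a fixed list of symbols, matched through the RefSeq accession of each array probe. No measured value entered that rule, but the list was chosen with earlier results of these data known. All 34 had a probe, among 32450 genes or identifiers on the array, and 31 of them were bright enough to be tested, among 20435. Ccne2, Cdk6 and E2f4 were not.

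A cyclin is the regulatory partner that switches on its CDK, and each step of the cycle has its own pair. D-type cyclins with Cdk4 or Cdk6, and then E-type cyclins with Cdk2, phosphorylate the pocket proteins, which releases E2F factors to transcribe the genes of DNA replication. CDK inhibitors oppose these kinases, and B-type cyclins with Cdk1 drive mitosis. Mouse embryonic stem (ES) cells cycle fast with a short G1 phase, whereas germ cells of the fetal testis leave the cycle and arrest around the stage sampled here.

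Total RNA of sorted cells was labelled from 100 ng and hybridised to Agilent arrays with 1 colour, 3 arrays per group, which the study's design text calls biological replicates. The primordial germ cells (PGCs), precursors of eggs and sperm, were sorted for GFP out of male genital ridges at E13.5. Their embryos came from a cross of MCH with C57BL6/J mice carrying the Oct4ΔPE-GFP transgene, which marks germ cells. The Max knockdown and control groups were both VV3 ES cells, a single male line of 129SV background whose Venus reporter is driven by the promoter of Vasa (Ddx4), a germ cell gene. They were cultured with 14% KSR, 1% FBS and LIF, transfected by Lipofectamine RNAiMAX with siRNA against Max or with AllStars non-silencing siRNA, and sorted as live single cells 3 days later. The Max knockdown cells were also sorted as Venus-positive and the control cells were not, so siRNA and gate cannot be told apart. Max is the DNA-binding partner of the Myc proteins. PGCs differ from the ES cells in strain, origin, reporter and array slide as well as in cell type, and these cannot be told apart either. The question of the study was which germ cell genes Max holds down in ES cells, and PGCs serve as the germ cell comparison.

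Levels are log2 processed signals relative to the 75th percentile of the same array, so that 0 is the signal at that percentile, and they are not compared between probes. A call means an adjusted p under 0.05 in a limma fit over all 9 arrays. Between 58.2% and 67.6% of spots were well above background on an array, no spot was saturated, and the number of arrays limits the precision. Max itself had levels of 0.59, 0.83 and 1.13 in Max knockdown cells, against 2.84, 2.74 and 2.85 in control cells, and was 3.89-fold lower (adjusted p = 2.9e-05). All 7 germ cell markers were above background on every PGC array, and their summed log2 level was 6.94 to 7.16 in PGCs, 4.99 to 5.18 in Max knockdown cells and 2.71 to 2.76 in control cells. The 5 pluripotency markers summed to 5.33 to 5.61, 6.23 to 6.29 and 5.91 to 6.15 in the PGC, Max knockdown and control arrays. The 3 blood markers summed to -0.83 to 0.57 in PGCs, -3.17 to -2.79 in Max knockdown cells and -3.60 to -3.52 in control cells, with 2 or 3 of them above background on each PGC array and Ptprc and Alas2 on no ES cell array. The interstitial markers summed to 1.51 to 2.31 in PGCs and at most 1.37 in the ES cell groups, whereas the 6 fibroblast markers summed to 0.45 to 0.74 in Max knockdown cells, against 1.92 to 2.58 in control cells. The 5 Sertoli cell markers summed to 1.07 to 1.96, 0.83 to 1.35 and 1.27 to 1.69 in the PGC, Max knockdown and control arrays, and the 4 endothelial markers to 0.79 to 1.06, 0.51 to 1.09 and 0.65 to 1.13, with Emcn on no array. The part of these markers in the differences below was not tested. In such bulk samples, fewer cells with a transcript and less of it per cell cannot be told apart.

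In PGCs, the G1 cyclins were far below control ES cells, while the retinoblastoma gene Rb1 and the inhibitor gene Cdkn2a were far above. Of the 31 genes, 6 rose and 19 fell relative to control cells, where 43.2% of all genes tested rose and 32.4% fell. Ccnd1 fell 6.92-fold and Ccne1 6.44-fold, against rises of 5.85-fold for Cdkn2a and 5.06-fold for Rb1. The median difference of the 31 genes was -0.58 on the log2 scale, beside 0.18 over all genes tested. With a normexp background correction of the median signals 2 rose and 12 fell, beside 14.8% and 14.6% of all genes. The same correction without spots dimmer than their background, chosen after seeing the data, gave 5 and 16, beside 43.4% and 27.3%. With scaling on the spike-in transcripts 2 rose and 19 fell, beside 5.66% and 36.5% of all genes. Ccna1, Ccnb3, Cdkn2c and Rbl2 were not well above background on every array. Over the other 27 genes 6 rose, with E2f5 in place of Ccnb3, and 16 fell, beside 46.8% and 30.7% of all genes under that filter. Genes that fell include both activators and inhibitors of the cycle.

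Relative to Max knockdown cells, 10 of the 31 genes rose in PGCs and 17 fell, with 44.9% of all genes tested rising and 31.4% falling. The median was -0.57, beside 0.21 over all genes. This comparison shares the PGC arrays with the comparison to control cells, so the values of both are given side by side and not as separate evidence. When arrays were scaled on the spike-in transcripts in place of the 75th percentile, the median of all genes moved to -0.78 in PGCs over control cells and to -0.75 in PGCs over Max knockdown cells, so every difference of PGCs is relative to the bulk of genes.

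After Max knockdown the changes were smaller. Of the 31 genes, 3 rose (Cdkn2d, Cdkn2a and Ccna1) and 8 fell (E2f7, Cdkn2b, Cdkn1b, Cdk4, Mybl2, Cdc25c, Cdc25b and Ccnb2) relative to control cells, where 18.2% of all genes tested rose and 21.9% fell. The median was -0.16, beside -0.07 over all genes. None of these 11 changes reached 2-fold, and the share of all genes that did was not counted. Of the 11 calls, 5 were lost when single arrays were left out, as given with each gene. Without Max knockdown replicate 4 or without control replicate 2, 5 genes fell, and without any one of the other arrays 6 or 7 fell. Only 1 gene rose without Max knockdown replicate 1 or 2 or any one control array, and 2 without Max knockdown replicate 4. The shares of all genes in these fits were 14.1% to 16.3% rising and 16.7% to 19.2% falling. With spike-in scaling no gene passed the limma test or had an unadjusted p under 0.05, beside 3.49% of all genes rising and 1.41% falling. With normexp on the median signals 1 gene fell, beside 1.57% of all genes. With normexp without the 14 spots dimmer than their background 1 rose and 7 fell, beside 16.3% and 17.5%. That setting was chosen after seeing the data.

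**Figure D1:**
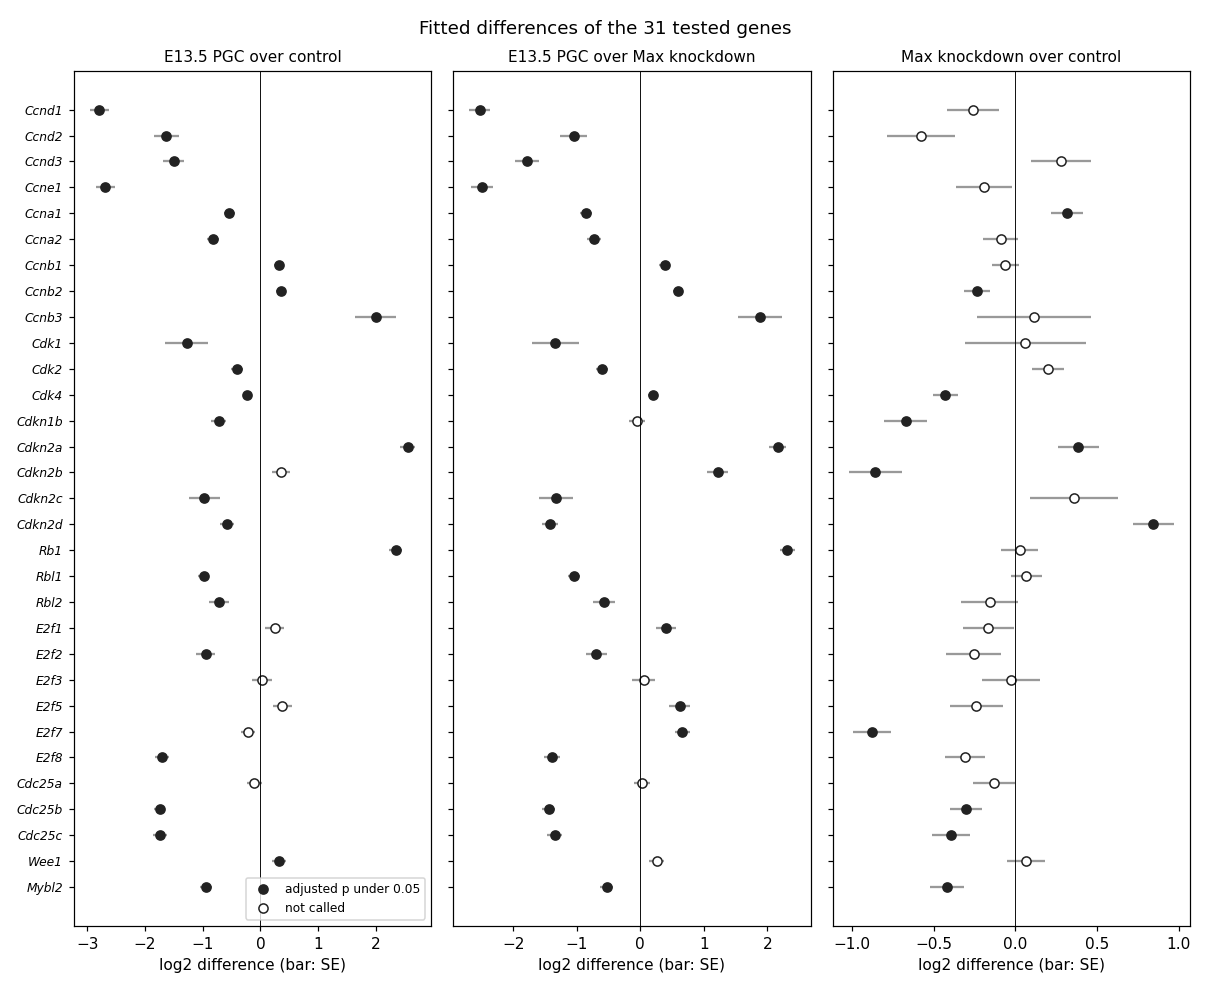
Fitted log2 differences of the 31 tested genes, in order of role, for PGCs over control cells, PGCs over Max knockdown cells and Max knockdown cells over control cells. Bars are standard errors of the limma fit and filled points are calls; Ccnd1 and Ccne1 lie farthest left and Cdkn2a and Rb1 farthest right in the panel of PGCs over control cells, and all points lie between -0.88 and 0.84 in the panel of Max knockdown.

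All 3 D-type cyclins, which carry growth signals to Cdk4 and Cdk6, fell in PGCs. Ccnd1 had levels of -1.60, -1.12 and -1.24 in PGCs, 0.95, 1.32 and 1.37 in Max knockdown cells and 1.33, 1.46 and 1.62 in control cells. Every PGC array lay far below every ES cell array. The difference of PGCs was -2.79 ± 0.16 (SE) from control cells (adjusted p = 7.6e-07) and -2.53 ± 0.16 from Max knockdown cells (adjusted p = 1.4e-06).

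Ccnd3 had levels of 3.44, 4.13 and 3.89 in PGCs, 5.72, 5.66 and 5.44 in Max knockdown cells and 5.45, 5.43 and 5.09 in control cells. The PGC arrays again stood apart, whereas the Max knockdown and control arrays overlapped. It fell 2.84-fold relative to control cells (adjusted p = 7.9e-05) and 3.45-fold relative to Max knockdown cells (adjusted p = 2.7e-05). Its second probe gave -1.60 and -1.93 for these differences. Ccnd2 fell 3.09-fold in PGCs relative to control cells (adjusted p = 0.00011) and 2.07-fold relative to Max knockdown cells (adjusted p = 0.0016).

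In Max knockdown cells no D-type cyclin was called. Ccnd2 was the nearest, at -0.58 ± 0.21 and an adjusted p of 0.056, and it was the only D-type cyclin with an unadjusted p under 0.05. It passed the test without Max knockdown replicate 2 (-0.72, adjusted p = 0.041) and without control replicate 1 (-0.74, adjusted p = 0.033). It also passed with the filter on all 9 arrays (adjusted p = 0.038) and with the replicate block (-0.59, adjusted p = 0.032). With normexp without spots dimmer than their background it passed as well (-0.52, adjusted p = 0.042). Ccnd1 differed by -0.26 and Ccnd3 by 0.28, and with slide as a block Ccnd3 was called higher (0.28, adjusted p = 0.038).

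Ccne1, the partner of Cdk2 at entry into DNA replication, had levels of 1.69, 2.35 and 1.82 in PGCs, 4.34, 4.52 and 4.48 in Max knockdown cells and 4.50, 4.81 and 4.62 in control cells. The highest PGC array lay well under the lowest ES cell array, and the ES cell groups overlapped. The difference of PGCs was -2.69 ± 0.17 from control cells (adjusted p = 1.3e-06) and -2.49 ± 0.17 from Max knockdown cells (adjusted p = 2.2e-06). A second probe gave -2.18 ± 0.18 from control cells. For Ccne2, the other E-type cyclin, no array gave a signal well above background.

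**Figure D2:**
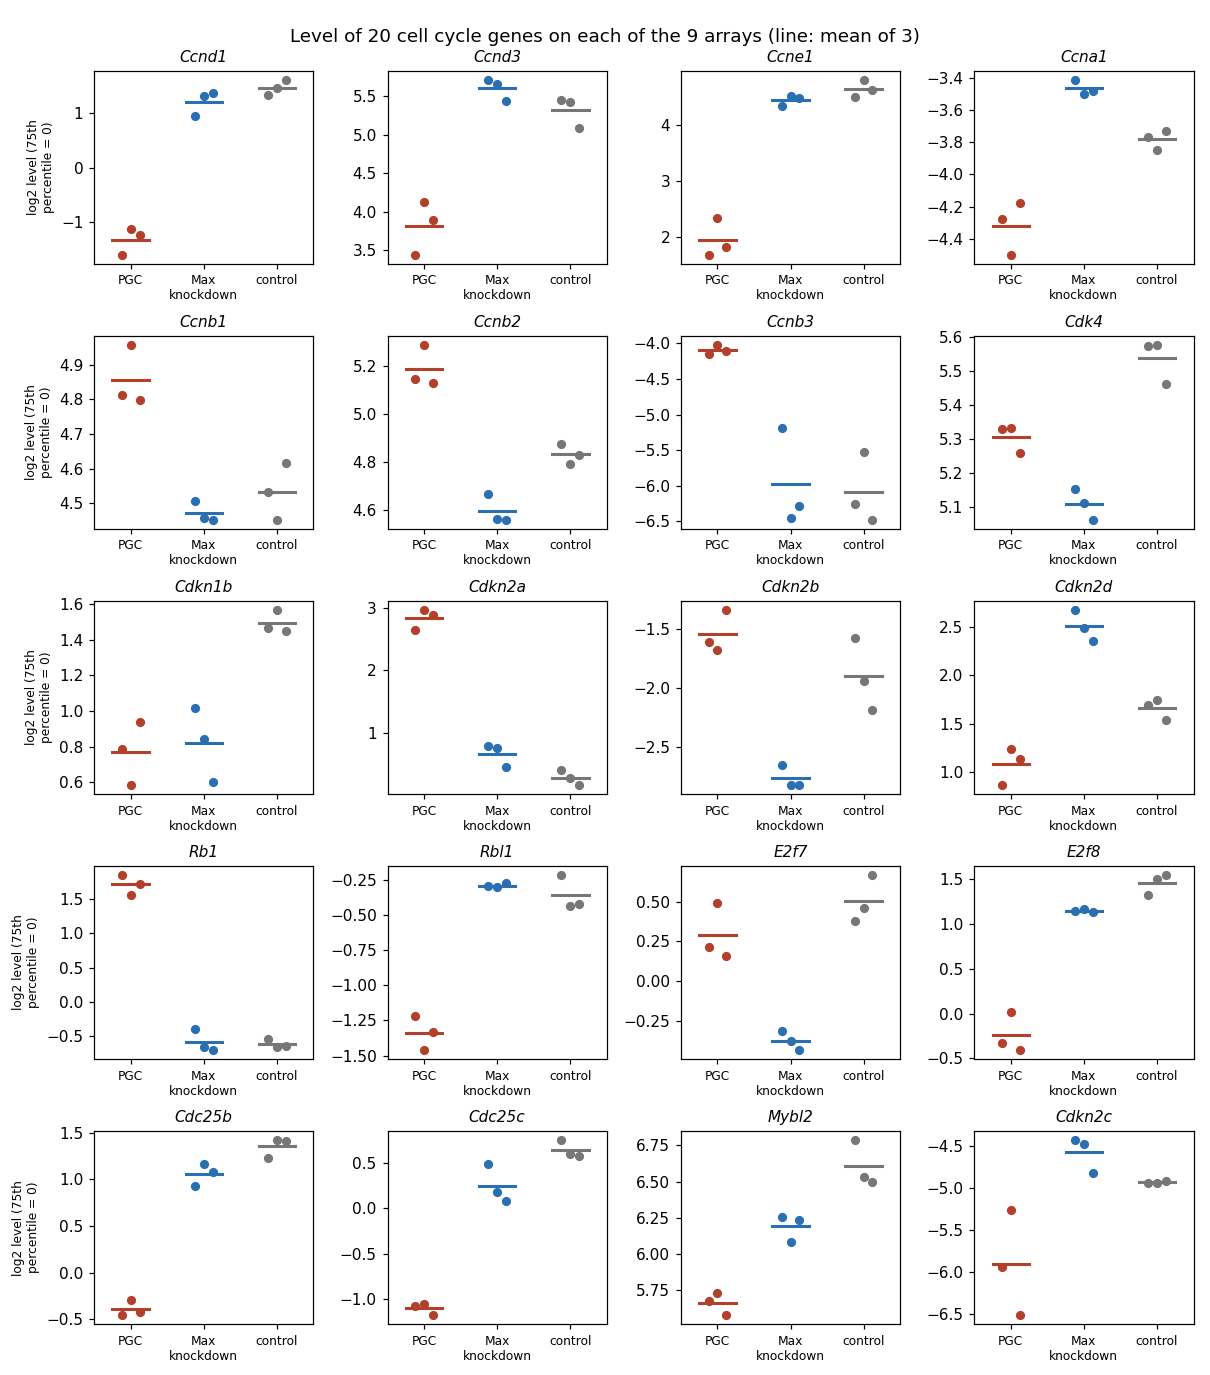
Log2 level of 20 of the genes on each of the 9 arrays, with 3 points per group and a line at their mean; the vertical scale differs between panels. The PGC points stand below both ES cell groups for Ccnd1, Ccnd3 and Ccne1 and above them for Rb1 and Cdkn2a, while the Max knockdown points stand apart from both other groups for Cdkn2b, Cdkn2d and E2f7.

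The A-type cyclins act in DNA replication and the approach to mitosis, and the B-type cyclins in mitosis. Ccna2, the somatic A-type cyclin, fell in PGCs, 1.76-fold relative to control cells (adjusted p = 0.00012) and 1.66-fold relative to Max knockdown cells (adjusted p = 0.00025). Ccna1, known in mice for its role in male meiosis, had levels of -4.28, -4.50 and -4.18 in PGCs, -3.41, -3.50 and -3.48 in Max knockdown cells and -3.77, -3.85 and -3.73 in control cells. The 3 groups did not overlap, but the probe was dim and only 1 of the PGC arrays was well above background.

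Relative to control cells, the fitted difference of Ccna1 was -0.54 in PGCs (adjusted p = 0.00099), and it was -0.063 with either normexp correction (adjusted p = 0.95 and 0.67). The probe entered the test through the ES cell arrays alone, where it is higher, so the adjusted p of 0.00099 is not read as support. Max knockdown cells were 1.25-fold above control cells (adjusted p = 0.032). The call after Max knockdown was lost when any one of its 6 arrays was left out, with differences from 0.29 to 0.34 and adjusted p from 0.057 to 0.105.

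Ccnb1 and Ccnb2 encode the cyclins that bind Cdk1 for mitosis. Ccnb1 had levels of 4.81, 4.96 and 4.80 in PGCs, 4.51, 4.46 and 4.45 in Max knockdown cells and 4.53, 4.45 and 4.62 in control cells. Ccnb2 had levels of 5.15, 5.29 and 5.13 in PGCs, 4.67, 4.56 and 4.56 in Max knockdown cells and 4.88, 4.79 and 4.83 in control cells. Both were highest on the PGC arrays, by a small margin, which is the opposite of Ccnd1 and Ccne1.

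Ccnb1 was 1.25-fold higher in PGCs than in control cells (adjusted p = 0.0067) and Ccnb2 1.28-fold (adjusted p = 0.0035), but with spike-in scaling these differences turned to -0.63 and -0.60. With normexp on the median signals they were 0.30 and 0.30, and neither was called (adjusted p = 0.54 for both). Both stayed called with normexp without spots dimmer than their background, a setting chosen after seeing the data. Over Max knockdown cells the differences of PGCs were 0.38 and 0.59, and -0.58 and -0.38 with spike-in scaling. The other 2 probes of Ccnb1 differed by 0.10 and -0.18 between PGCs and control cells and were not called. After Max knockdown these 2 probes were called lower than in control cells (-0.32 and -0.27, adjusted p = 0.042 and 0.047), and the probe used was not (-0.06). Ccnb2 was also 1.18-fold lower in Max knockdown cells than in control cells (adjusted p = 0.046). That call was lost when any one of the 6 arrays was left out (differences from -0.27 to -0.21, adjusted p from 0.052 to 0.126) and with slide as a block (adjusted p = 0.051).

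The stretches just before the starts of Ccnb1 and Ccnb2 are shown because B-type cyclin promoters are known for CCAAT boxes, the site of the factor NF-Y. They are the 120 bases before each start in RefSeq (GRCm38.p6, minus strand for both), at chr13:100786487-100786606 for Ccnb1 and chr9:70421555-70421674 for Ccnb2, with each CCAAT in capitals.
Ccnb1: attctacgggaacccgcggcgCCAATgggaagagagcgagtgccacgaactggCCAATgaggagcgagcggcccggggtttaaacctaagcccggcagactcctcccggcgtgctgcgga
Ccnb2: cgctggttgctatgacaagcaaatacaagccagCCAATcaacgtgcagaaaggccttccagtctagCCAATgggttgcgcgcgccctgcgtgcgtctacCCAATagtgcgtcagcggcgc
Ccnb1 holds the box at 99 and 67 bases before the start, and Ccnb2 at 87, 54 and 21. At least 1 CCAAT on either strand within 250 bases before the start was found for 37.5% of the 27025 genes with a RefSeq promoter. Of the 14 tested genes of the list with the box, 2 rose (Ccnb1 and Ccnb2) and 9 fell in PGCs over control cells. Of the 10 without it, 2 rose and 6 fell, beside 43.2% and 32.4% of all genes tested.

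Ccnb3, a B-type cyclin known for its role in mouse germ cell meiosis, had levels of -4.15, -4.02 and -4.11 in PGCs, -5.18, -6.45 and -6.29 in Max knockdown cells and -6.26, -5.52 and -6.48 in control cells. The PGC arrays agreed closely and lay above all others. The probe was not well above background on any control array and was so on 1 of 3 Max knockdown arrays. It entered the test through the PGC arrays alone, where it is high, so its adjusted p of 0.00074 against control cells is not read as support. It was at least 3.02-fold higher in PGCs than in control cells, where the bound sets the mean of the PGC arrays against the lowest signal well above background on each control array, or the dim probe's own signal where that was higher. With spike-in scaling the fitted differences of PGCs from control and Max knockdown cells were 1.04 and 0.91 and neither was called. With normexp on the median signals they were 0.69 (adjusted p = 0.56) and -0.50 (adjusted p = 0.60). With normexp without spots dimmer than their background, chosen after seeing the data, PGCs stayed higher in both comparisons.

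Among the kinases, Cdk4 and Cdk2, which drive G1 and the start of DNA replication, fell a little in PGCs relative to control cells. Cdk2 fell 1.32-fold relative to control cells (adjusted p = 0.0049) and 1.52-fold relative to Max knockdown cells (adjusted p = 0.00047). Cdk1, the mitotic kinase, fell 2.42-fold relative to control cells on the probe used (adjusted p = 0.012), but a second probe gave -0.48 ± 0.22 with no call. On the probe used, Max knockdown replicate 4 and control replicate 3, which shared a slide, were at -1.34 and -1.54, and the other ES cell arrays lay between -0.71 and -0.25. Cdk6 was well above background on 1 PGC array and on no ES cell array, and it was not tested. Its mean level was -4.51 in PGCs, -7.11 in Max knockdown cells and -7.17 in control cells. Most of these signals were not well above background, so no fold is given.

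Cdk4 had levels of 5.33, 5.33 and 5.26 in PGCs, 5.15, 5.11 and 5.06 in Max knockdown cells and 5.57, 5.58 and 5.46 in control cells. The spread within each group was small and the 3 groups did not overlap, with Max knockdown cells lowest. Max knockdown cells were 1.35-fold below control cells (-0.43 ± 0.08, adjusted p = 0.0025), and all 3 probes of the gene fell, by 0.43, 0.50 and 0.47 on the log2 scale. The difference was -0.44 within the first slide and -0.40 within the second. It stayed called whichever array was left out.

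The 3 probes of Cdk4 did not give one size for PGCs. They gave -0.23, -0.34 and -0.53 from control cells, all called, and 0.20, 0.16 and -0.06 from Max knockdown cells, of which the first was called. On the probe used, PGCs were at -0.23 ± 0.08 from control cells (adjusted p = 0.021), which lost its call without PGC replicate 3 (-0.21), control replicate 1 (-0.21) or control replicate 2 (-0.21). They were at 0.20 ± 0.08 from Max knockdown cells (adjusted p = 0.039), which lost its call without any one PGC array or Max knockdown replicate 2 or 4 (0.17 to 0.22). That second difference turned to -0.05 with quantile normalization and to -0.77 with spike-in scaling.

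The Cdk4 promoter is shown because it is the one with the most CACGTG letters among the 25 of the 34 genes matched in RefSeq, and CACGTG is the E-box to which Myc binds with Max. These are the 180 bases before the start (GRCm38.p6, plus strand, chr10:127063355-127063534), with each CACGTG in capitals.
Cdk4: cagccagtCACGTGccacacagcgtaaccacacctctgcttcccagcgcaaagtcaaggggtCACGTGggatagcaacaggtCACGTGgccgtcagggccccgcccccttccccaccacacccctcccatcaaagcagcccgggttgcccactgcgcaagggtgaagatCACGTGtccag
The 4 matches begin 172, 118, 98 and 11 bases before the start. Only 5 of 27025 genes, or 0.0185%, hold 4 or more within 250 bases before a start, and 6.86% hold at least 1. The match is a description of the letters and was not tested as a site. After Max knockdown, 1 of the 2 tested genes of the list with CACGTG fell (Cdk4), and the other, E2f3, was at -0.03. Of the 22 without it, 3 rose and 6 fell, beside 18.2% and 21.9% of all genes tested.

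The inhibitors were split within each comparison. Cdkn2a, which encodes p16INK4a and the p53 activator ARF from overlapping frames, had levels of 2.65, 2.97 and 2.89 in PGCs, 0.79, 0.77 and 0.46 in Max knockdown cells and 0.40, 0.29 and 0.17 in control cells. PGC arrays stood well apart, and the 3 Max knockdown arrays lay just above the 3 control arrays. PGCs differed by 2.55 ± 0.13 from control cells (adjusted p = 3.5e-07) and by 2.16 ± 0.13 from Max knockdown cells (adjusted p = 9.5e-07), and a second probe gave 2.56 and 2.13. With spike-in scaling the second difference was 1.19 and lost its call (adjusted p = 0.050). Both probes carry the same accession, so which of the 2 products rose was not resolved.

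Cdkn2a was 1.31-fold higher in Max knockdown cells than in control cells (adjusted p = 0.041). This call was lost without Max knockdown replicate 1 (0.33), Max knockdown replicate 2 (0.34) or any one control array (0.33 to 0.44), with adjusted p from 0.052 to 0.123.

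Cdkn2b, which encodes the Cdk4 and Cdk6 inhibitor p15INK4b next to Cdkn2a on chromosome 4, had levels of -1.62, -1.68 and -1.34 in PGCs, -2.65, -2.82 and -2.82 in Max knockdown cells and -1.58, -1.94 and -2.19 in control cells. The Max knockdown arrays were the lowest 3, while PGC and control arrays overlapped. Max knockdown cells were 1.81-fold below control cells (-0.86 ± 0.16, adjusted p = 0.0034), and the second probe gave -1.37 ± 0.14. With normexp on the median signals the difference turned to 0.14 (adjusted p = 0.83). It stayed called lower with normexp without spots dimmer than their background, a setting chosen after seeing the data. PGCs were 2.32-fold above Max knockdown cells (adjusted p = 0.00013, or a difference of 0.25 and no call with spike-in scaling) and at 0.36 ± 0.16 from control cells (adjusted p = 0.072). The last difference passed the test without control replicate 1 (0.52, adjusted p = 0.011) and on the second probe (0.59, adjusted p = 0.0045).

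Cdkn2d, which encodes p19INK4d, had levels of 0.87, 1.24 and 1.14 in PGCs, 2.68, 2.49 and 2.35 in Max knockdown cells and 1.69, 1.75 and 1.55 in control cells. It was highest in Max knockdown cells and lowest in PGCs, with no overlap of the groups. Max knockdown cells were 1.80-fold above control cells (0.84 ± 0.13, adjusted p = 0.0011) whichever slide was taken (0.86 and 0.81). PGCs were 1.49-fold below control cells (adjusted p = 0.0028) and 2.68-fold below Max knockdown cells (adjusted p = 1.1e-05).

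Cdkn1b, which encodes p27KIP1, an inhibitor of Cdk2 with cyclin E or A, had levels of 0.79, 0.58 and 0.94 in PGCs, 1.02, 0.84 and 0.60 in Max knockdown cells and 1.46, 1.57 and 1.45 in control cells. PGC and Max knockdown arrays overlapped, and both lay below the control arrays. It was 1.59-fold lower in Max knockdown cells (adjusted p = 0.0041) and 1.65-fold lower in PGCs (adjusted p = 0.00091) than in control cells, which both comparisons share. PGCs and Max knockdown cells differed by -0.05 ± 0.13.

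Cdkn2c, which encodes p18INK4c, was dim, with levels of -5.94, -5.27 and -6.51 in PGCs, -4.43, -4.48 and -4.82 in Max knockdown cells and -4.94, -4.94 and -4.92 in control cells. No PGC array was well above background, so the gene was at least 1.17-fold lower in PGCs than in control cells. The same measure gave 1.51-fold against Max knockdown cells, where 2 of 3 arrays were above background. The gene entered the test through the control arrays alone, where it is higher than in PGCs. Its adjusted p of 0.0098 against control cells and 0.0018 against Max knockdown cells are therefore not read as support. With normexp background correction its difference from control cells turned to 0.09.

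Among the pocket protein genes, only Rb1 is given a direction in PGCs. Rb1 had levels of 1.86, 1.57 and 1.73 in PGCs, -0.40, -0.67 and -0.71 in Max knockdown cells and -0.55, -0.66 and -0.65 in control cells. Every PGC array stood well above every ES cell array, and the Max knockdown and control arrays overlapped. PGCs differed by 2.34 ± 0.11 from control cells (adjusted p = 2.9e-07) and by 2.31 ± 0.11 from Max knockdown cells (adjusted p = 3.4e-07). After Max knockdown the difference was 0.03 ± 0.11 (adjusted p = 0.88).

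Rbl1, which encodes p107, had levels of -1.22, -1.46 and -1.33 in PGCs, -0.29, -0.30 and -0.27 in Max knockdown cells and -0.21, -0.43 and -0.42 in control cells on the probe used. The PGC arrays lay below all others, and the ES cell groups overlapped. PGCs were 1.98-fold below control cells (adjusted p = 2e-05). Its second probe, designed to another transcript accession, went the other way. That probe gave 0.45 ± 0.12 for PGCs over control cells (adjusted p = 0.0094), 1.11 ± 0.12 for PGCs over Max knockdown cells and -0.67 ± 0.12 for Max knockdown over control cells (adjusted p = 0.0033). No direction is therefore given for the gene.

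Rbl2, which encodes p130, the pocket protein of resting cells, had levels of -4.65, -5.10 and -5.40 in PGCs, -4.45, -4.45 and -4.55 in Max knockdown cells and -4.37, -4.20 and -4.40 in control cells. The PGC arrays were the lowest and the most spread. The probe was dim, and 1 of 3 PGC arrays was well above background. The fitted differences of PGCs were -0.72 from control cells (adjusted p = 0.0044) and -0.57 from Max knockdown cells (adjusted p = 0.015). The probe entered the test through the ES cell arrays alone, where it is higher, so these adjusted p are not read as support. With normexp without spots dimmer than their background, a setting chosen after seeing the data, the differences were -0.035 (adjusted p = 0.79) and -0.0053 (adjusted p = 0.97). None of the 3 pocket protein genes was called after Max knockdown in the limma fit over all arrays, and none had an unadjusted p under 0.05.

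Among the E2F factors, the activators E2f1 and E2f3 were not called between PGCs and control cells, at 0.24 ± 0.16 and 0.03 ± 0.18. E2f2, also an activator, fell 1.93-fold relative to control cells (adjusted p = 0.00079) and 1.62-fold relative to Max knockdown cells (adjusted p = 0.0046). A second probe of E2f3 was higher in PGCs than in control cells, at 0.64 ± 0.16 (adjusted p = 0.0053). E2f1 was at 0.41 ± 0.16 in PGCs over Max knockdown cells (adjusted p = 0.039), a call that was lost without Max knockdown replicate 1 (0.37) or 2 (0.39), without PGC replicate 2 (0.26) or 3 (0.43), and with spike-in scaling (-0.56).

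E2f5, a factor that represses with Rbl2, was at 0.38 ± 0.16 in PGCs over control cells (adjusted p = 0.062), and at 0.62 ± 0.16 over Max knockdown cells (adjusted p = 0.0077), or -0.35 with spike-in scaling. The first difference was called with slide as a block (0.43, adjusted p = 0.037), with the replicate block (adjusted p = 0.018) and with the filter on all 9 arrays (adjusted p = 0.047). E2f4, the other partner of Rbl2, was well above background on no PGC array, 1 of 3 Max knockdown arrays and 2 of 3 control arrays, and it was not tested.

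E2f8 and E2f7 are the atypical repressors of E2F targets. E2f8 had levels of -0.33, 0.02 and -0.41 in PGCs, 1.14, 1.17 and 1.14 in Max knockdown cells and 1.33, 1.50 and 1.55 in control cells. The 3 groups did not overlap. PGCs were 3.25-fold below control cells (adjusted p = 2.8e-06) and 2.62-fold below Max knockdown cells (adjusted p = 1e-05), and Max knockdown cells were at -0.31 ± 0.12 from control cells (adjusted p = 0.074).

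E2f7 had levels of 0.22, 0.49 and 0.16 in PGCs, -0.31, -0.37 and -0.43 in Max knockdown cells and 0.38, 0.46 and 0.67 in control cells. The Max knockdown arrays were the lowest 3, while PGC and control arrays overlapped. Max knockdown cells were 1.84-fold below control cells (-0.88 ± 0.12, adjusted p = 0.00063), and this probe was -0.76 on the first slide and -1.10 on the second. A second E2f7 probe gave -0.13 ± 0.11 (adjusted p = 0.40) after Max knockdown, so the fall rests on 1 of 2 probes. On the first probe PGCs were 1.58-fold above Max knockdown cells (adjusted p = 0.00076), or at -0.31 with spike-in scaling. They differed by -0.21 from control cells, or by -0.32 without PGC replicate 2 (adjusted p = 0.031).

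Of the CDC25 phosphatases, which activate CDKs by removing inhibitory phosphates, those known for entry into mitosis fell in PGCs. Cdc25b had levels of -0.46, -0.29 and -0.42 in PGCs, 0.93, 1.16 and 1.08 in Max knockdown cells and 1.23, 1.42 and 1.41 in control cells. Cdc25c had levels of -1.07, -1.05 and -1.18 in PGCs, 0.48, 0.18 and 0.08 in Max knockdown cells and 0.75, 0.60 and 0.57 in control cells. For both genes the PGC arrays stood far below the ES cell arrays, and the Max knockdown arrays lay just below the control arrays.

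PGCs were 3.35-fold below control cells for Cdc25b (adjusted p = 6.5e-07) and 3.34-fold for Cdc25c (adjusted p = 1.9e-06), and 2.72-fold and 2.54-fold below Max knockdown cells. Max knockdown cells were 1.23-fold below control cells for Cdc25b (adjusted p = 0.039) and 1.31-fold for Cdc25c (adjusted p = 0.027). The first of these calls was lost without Max knockdown replicate 1 (-0.24) or 4 (-0.31) or control replicate 2 (-0.27) or 3 (-0.27). The second was lost without Max knockdown replicate 2 (-0.36) or 4 (-0.31) or control replicate 1 (-0.34) or 2 (-0.42).

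Cdc25a, which acts at the start of DNA replication, was not called in any comparison, at -0.11 ± 0.13 in PGCs over control cells. Wee1, the kinase that adds the inhibitory phosphate to Cdk1, was 1.25-fold higher in PGCs than in control cells (adjusted p = 0.031). That call was lost without PGC replicate 1 (0.24) or 2 (0.32) and without control replicate 3 (0.24), and with spike-in scaling the difference turned to -0.64. Wee1 was at 0.26 ± 0.11 in PGCs over Max knockdown cells, and at 0.34 without PGC replicate 3 (adjusted p = 0.031).

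Mybl2, which encodes B-MYB, an activator of mitotic genes, had levels of 5.67, 5.73 and 5.57 in PGCs, 6.25, 6.08 and 6.23 in Max knockdown cells and 6.79, 6.53 and 6.50 in control cells. The order of the groups was PGC, Max knockdown, control, with no overlap. PGCs were 1.93-fold below control cells (adjusted p = 4e-05), and Max knockdown cells 1.34-fold below (adjusted p = 0.013). A second Mybl2 probe gave -0.09 ± 0.16 for PGCs over control cells and 0.42 ± 0.16 for Max knockdown over control cells (adjusted p = 0.059). The 2 probes thus differ in direction after Max knockdown, and against Max knockdown cells they gave -0.53 and -0.51 in PGCs.

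**Figure D3:**
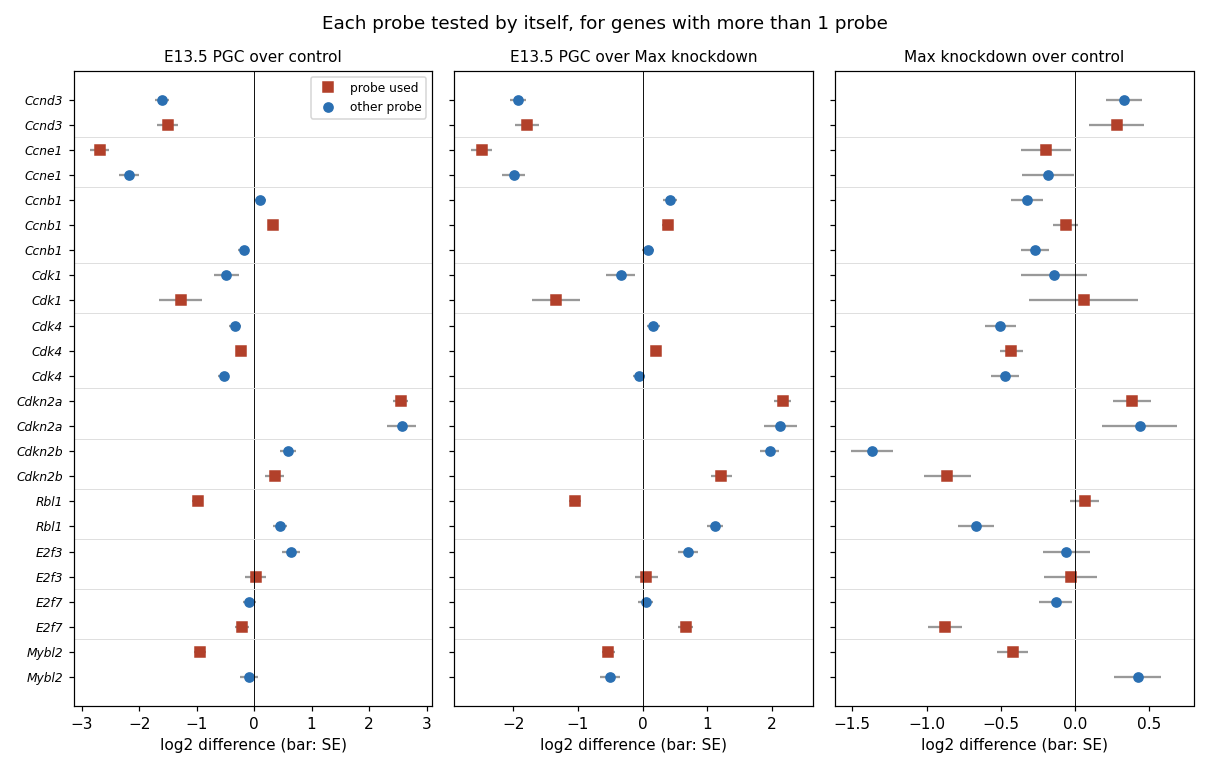
Log2 differences of every tested probe by itself for the 11 genes with more than 1 probe, with standard errors as bars; squares are the probe used and circles the others. The probes of Cdkn2a and Ccnd3 lie close together in each panel. Those of Ccne1 lie on the same side of 0, at -2.69 and -2.18 for PGCs over control cells. The probes of Rbl1 lie on opposite sides of 0 in all 3 panels and those of Mybl2 on opposite sides after Max knockdown.

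Knockdown and control arrays shared slides, so the knockdown could also be read within each slide. The first slide held 2 arrays of each group and the second held 1 of each. The calls used the arrays of both slides, so the same sign on both is not separate support for them. With slide as a block 4 genes rose and 8 fell, beside 20.4% and 25.2% of all genes. Ccnd3 (0.28) and E2f5 (-0.24, adjusted p = 0.036) were gained and Ccnb2 was lost. The PGC arrays lay on slides of their own, so for them slide and cell type cannot be told apart. Slide was fitted there as a random block, which cannot remove a difference between PGC and ES cell slides. Relative to control cells 7 genes rose and 19 fell, beside 41.1% and 31.2% of all genes. Relative to Max knockdown cells 8 rose and 17 fell, beside 43% and 30.2%.

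**Figure D4:**
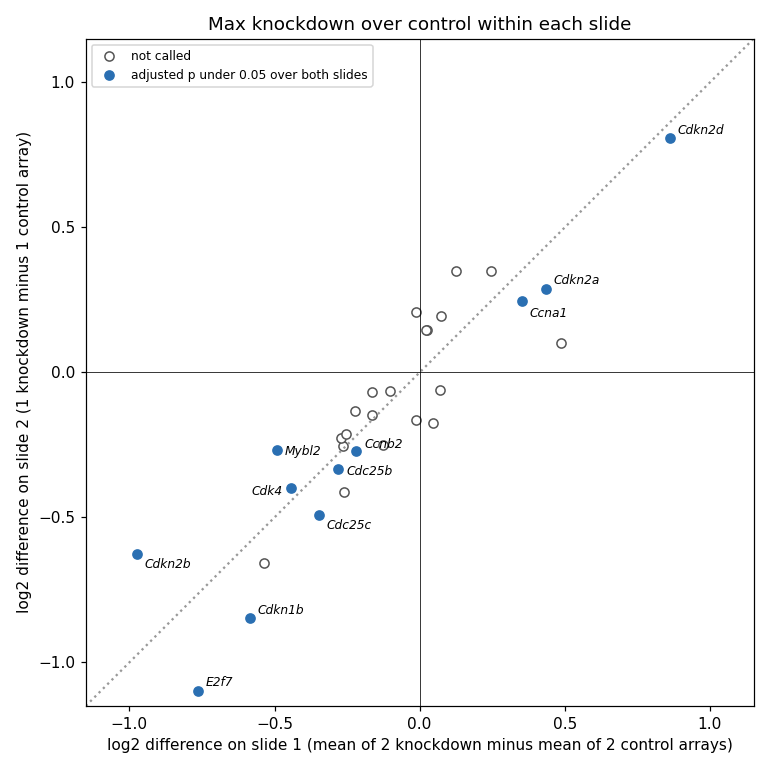
Log2 difference of Max knockdown over control for the 31 tested genes on the first slide (horizontal axis) and on the second (vertical axis), with a dotted line where both are equal. Filled points are the 11 genes called over both slides; Cdkn2d lies at the upper right at 0.86 and 0.81, and E2f7, Cdkn1b and Cdkn2b lie at the lower left.

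The neighbouring genes of the cell cycle were counted from 7 lists of 85 genes, of which 81 were tested. In PGCs 43 of the 81 rose and 24 fell relative to control cells (43.2% and 32.4% of all genes), and 42 rose and 22 fell relative to Max knockdown cells (44.9% and 31.4%). After Max knockdown 11 rose and 18 fell relative to control cells (18.2% and 21.9%). The median difference of the 81 was 0.38 in PGCs over control cells, beside 0.18 over all genes tested.

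The counts by list for PGCs relative to control cells stand beside 43.2% of all genes tested rising and 32.4% falling. Of 19 genes of the SCF and APC/C, the ubiquitin ligases that destroy cyclins and inhibitors, 14 rose and 4 fell. Anapc4, an APC/C subunit, was at 1.50 and Fbxw7, which recognises cyclin E, at 1.36. Of 16 other CDKs and CDK subunits, 10 rose and 3 fell, among them Cdk16 at 1.30 and Cdk18 at -3.66. Of 14 other cyclins 6 rose and 4 fell, with Ccnh, the partner of Cdk7, at 1.89 and Ccng1 at -3.37. Of 10 E2F partners and subunits of the DREAM and MuvB complexes 6 rose and 2 fell, led by E2f6, a repressor that does not need pocket proteins, at 1.48 and Mybl1, which encodes A-MYB, at 1.45.

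The other inhibitors of the CIP/KIP family went apart in PGCs over control cells, with Cdkn1c, which encodes p57KIP2, at 1.44 and Cdkn1a, which encodes p21CIP1, at -0.94. Of 16 mitotic kinases and spindle checkpoint genes 6 rose and 7 fell, beside 43.2% and 32.4% of all genes tested. They were led by Plk1 at -1.06 and Birc5 at -0.69. Of 4 proliferation markers 3 fell, led by Tpx2 at -0.89 and Mki67 at -0.53, and Pcna was at -0.04. Relative to Max knockdown cells the largest differences of PGCs in these lists were those of Cdk18 at -3.52, Ccno at -3.48, Ccng1 at -3.03 and Cdk14 at 2.27. The other lists were led there by Mybl1 at 1.59 and E2f6 at 1.57, Anapc4 at 1.56 and Cdc16 at 1.54, Cdkn1c at 1.05 and Cdkn1a at -0.40, Birc5 at -0.88 and Mad2l1 at 0.83, and Tpx2 at -0.77 and Mki67 at -0.31.

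After Max knockdown the largest change in the lists was Ccno, at 2.21 ± 0.15 over control cells (adjusted p = 2.7e-05). Btrc, the SCF subunit that recognises Wee1, was at 1.10 and Cdk14 at -1.11. Lin9 and Tfdp2, a MuvB subunit and an E2F partner, were at 0.72 and 0.64, and Cdkn1a was at -0.54. Ccng2 was at -0.79, Cdc26 at -0.78, Cdk5 at 0.61, Mad1l1 at 0.50 and Haspin at 0.39. None of the 4 proliferation markers passed the limma test, or had an unadjusted p under 0.05, with Mki67 at -0.23 and an adjusted p of 0.13.

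Promoter letters were compared for the 25 genes that matched RefSeq, over 250 bases before each start and on both strands. The letters of E2F sites (TTTCCCGC, TTTCGCGC, TTTGCCGC or TTTGGCGC) stood before 7 of 25 genes, beside 2.16% of all 27025 genes. CHR letters (TTTGAA or TTCGAA), known from genes of late cell cycle, stood before 7 of 25 genes and 19.6% of all. CCAAT stood before 14 of 25 and CACGTG before 3 of 25, beside 37.5% and 6.86% of all genes. No set of letters contains another. In PGCs over control cells 1 gene with E2F letters rose and 3 fell of 7 tested, while 3 rose and 12 fell of the 17 without. Of all genes tested, 43.2% rose and 32.4% fell there. The genes were chosen for their roles in the cycle, and these shares describe them only.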

How the data were processed

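Arrays were assigned through their titles. Spot intensity was extracted with Agilent Feature Extraction 10.7.3.1, and the authors' processed column was already corrected for local background, per the file headers. The deposited value table holds log2 values with unstated scale and centring; they matched the scanner values scaled on the 75th percentile and centred per probe (r of at least 0.99999), in the same direction, with column medians from -0.12 to 0.39. Control spots and 65 probes with outlier flags were left out. Probes were named through RefSeq accessions (GRCm38.p6), and a gene's probe with the highest mean was used. Testing required a gene to be well above background on every array of 1 or more groups.

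Groups were compared with lmFit and eBayes of limma 3.58.1 (R 4.3.3) over all 9 arrays, with Benjamini-Hochberg adjustment over 20435 genes, tested on simulated data. With 3 arrays against 3, an exact permutation test cannot go below 0.1, so the calls depend on the variance limma shares between genes. Genes named with a value on every array were Max, the 5 largest called rises and falls of each comparison, the inhibitors and the pocket proteins; from each neighbouring list, the 2 largest called changes were named. The 34 genes and all lists were chosen with earlier results of these data known. One blood marker is not reported here.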

Additional observations from a re-analysis of the deposited data

How the results depend on the processing

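Counts below are given as genes rising and falling among the 31. For Max knockdown over control, the counts were 1 and 5 with no filter on dim probes, beside 9.78% and 10.4% of all genes. They were 0 and 1 with normexp on the median signals (0 and 5 at an unadjusted p under 0.05), beside 2.76% and 1.57%. With normexp without spots dimmer than their background, chosen after seeing the data, 1 rose and 7 fell, beside 16.3% and 17.5%, with a median of -0.15. The counts were 0 and 0 with spike-in scaling in limma (0 and 0 also at an unadjusted p under 0.05), beside 3.49% and 1.41%. The differences of the 11 called genes hardly moved there, and their SE was 0.51. The counts were 0 and 0 when at least 2-fold was also required. Leaving out 1 array gave 1 to 2 and 5 to 7, beside 14.1% to 16.3% and 16.7% to 19.2% of all genes. Normexp on the median signals moved the median to -0.39 and Cdkn2b to 0.14, and the mean of probes turned Mybl2 to 0.0026 and Rbl1 to -0.30. For PGCs over control cells, the counts were 2 and 12 with normexp on the median signals (14.8% and 14.6% of all genes). They were 5 and 16 with normexp without the dim spots (43.4% and 27.3%). They were 2 rising with spike-in scaling (5.66% of all genes) and 3 and 8 with 2-fold. The median was -0.37 over every probe, -0.25 with either normexp and -1.53 with spike-in scaling. Cdkn2c turned to 0.092 with either normexp, and spike-in scaling turned Ccnb1 to -0.63, Ccnb2 to -0.60 and Wee1 to -0.64. For PGCs over Max knockdown cells, the counts were 4 and 11 with normexp on the median signals (18.8% and 16.4% of all genes). They were 9 and 14 with normexp without the dim spots (43.7% and 27.1%). They were 1 rising with spike-in scaling (4.88% of all genes) and 4 and 11 with 2-fold. The median was -0.057 over every probe, -0.12 with normexp without the dim spots, -0.73 with quantile normalization and -1.53 with spike-in scaling. The mean of probes turned Rbl1 to 0.032, normexp on the median signals turned Ccnb3 to -0.50, and quantile normalization turned Cdk4 to -0.047. Spike-in scaling turned Ccnb1 to -0.58, Ccnb2 to -0.38, Cdk4 to -0.77, E2f1 to -0.56, E2f5 to -0.35 and E2f7 to -0.31. The share of all genes that also passed the 2-fold rule was not counted, so the 2-fold counts describe these genes only. The 2-fold rule and the probe rules change the counts by their construction. For the other settings the cause was not tested. With the deposited value table, all 93 results kept their direction and their side of the threshold. With the replicate block, the counts were 2 and 6, 7 and 19, and 9 and 16 in these 3 comparisons. The shares of all genes were 14% and 15.9%, 42.9% and 32.1%, and 42.2% and 29.8%. Ccnd2 was gained after Max knockdown (-0.59, adjusted p = 0.032) and E2f5 in PGCs over control cells (adjusted p = 0.018). Replicate numbers are shared by 2 pairs of Max knockdown and control arrays only (r of their deviations 0.37 and 0.39) and did not pair PGC arrays with others (r from -0.03 to 0.02). The highest r, 0.51, was that of Max knockdown replicate 4 and control replicate 3, which share a slide and not a number. Spots near background and the 3 arrays per group limit what small differences can show.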
